A study of Caenorhabditis elegans with 12 samples.

Results

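The 10 genes described here are those that stood out for a very large increase after ultraviolet B (UV-B) irradiation of Caenorhabditis elegans L1 larvae. They were chosen by their own readings in these libraries: each was near silent or low in mock-treated larvae and strongly higher in irradiated larvae. They are B0563.9, F19B10.13, C49G7.12, fipr-26, F21C10.11, F43C1.7, ram-2, Y58A7A.5, R03H10.6 and pgp-8, which are 10 of the 46245 gene IDs with expression values. All 10 were also among the 12913 protein-coding genes that averaged at least 1 FPKM (fragments mapped to the gene, divided by its length and by the library's total) and entered the tests. Of these, 6 still averaged 1 FPKM or more over the mock libraries alone, so the other 4 passed that filter only through the UV libraries. Because the UV and mock values chose the genes, their UV increases are described without a test, and only the strain differences, which the choice did not use, are tested.

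Total RNA was sequenced from 4 groups of synchronized L1 larvae with 3 libraries each, described as biological replicates. The groups were lin-52(n771) mutants 6 h after UV-B at 60 mJ/cm2, wild-type N2 larvae 6 h after the same dose, lin-52(n771) mutants 6 h after mock treatment, and N2 larvae 6 h after mock treatment. All larvae had been fed E. coli for 3 h before treatment, all were collected whole, and the mutant is a single strain carrying a single allele, so strain background and allele cannot be told apart. Replicate numbers run to 4, because RNA of 4 replicates was checked per group and 3 were kept.

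UV-B makes bulky lesions in DNA that block RNA polymerase and are removed by nucleotide excision repair. LIN-52 is a subunit of the MuvB core of DREAM, a complex of E2F-DP, a pocket protein and MuvB that represses many cell-cycle and germline genes in somatic cells. The 10 genes come from several families. The fip and fipr genes encode small secreted peptides named for their induction by fungal infection. The pgp genes encode P-glycoproteins, ABC transporters that pump small molecules out of cells. The gene ram-2 is named for the abnormal male tail rays of its mutants. R03H10.6 is on the study's own list of DNA-damage response (DDR) genes and on its list of DDR genes bound by DREAM, and it is the only one of the 10 on either list.

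The libraries were similar in depth. Relative depth, read from the smallest steps between low FPKM values, ran between 0.938 and 1.28 times that of N2 mock 1, and 12475 to 12973 protein-coding genes reached 1 FPKM. The lin-52 gene itself averaged 11.1 ± 0.618 FPKM in lin-52 UV against 34.3 ± 1.52 FPKM in N2 UV, and 7.35 ± 0.328 FPKM in lin-52 mock against 24.4 ± 3.70 FPKM in N2 mock (SD, n = 3 each). Of 4 germline markers, the 3 tested ones were higher in lin-52 after UV and after mock treatment, and the list summed to 99.9–110 FPKM in lin-52 UV and 31.4–33.4 FPKM in N2 UV, and to 84.1–91.1 FPKM in lin-52 mock and 28.4–29.6 FPKM in N2 mock. Of 9 moulting genes, 8 were tested and all 8 fell after UV in both strains, with sums of 12.2–23.5 FPKM in lin-52 UV and 12.4–15.1 FPKM in N2 UV against 462–659 FPKM in lin-52 mock and 443–552 FPKM in N2 mock. All 5 neuronal markers and 4 of 5 body wall muscle markers also fell after UV in both strains. For 3 neuronal and 3 body wall muscle markers the fall was smaller in lin-52 by the test of that difference, and for 0 it was larger. Of 4 tested pharynx markers, 2 fell in N2 and 1 in lin-52, and the UV difference was higher in lin-52 than in N2 for 2. Of 4 tested hypodermis markers, 2 fell and 0 rose in each strain. Intestinal markers summed to 4358–4477 FPKM in lin-52 UV, 4355–4664 FPKM in N2 UV, 4275–4390 FPKM in lin-52 mock and 4390–4701 FPKM in N2 mock, sums carried mostly by asp-1 and cpr-1. Of the 6 tested intestinal markers, 4 rose after UV in each strain, 1 fell in lin-52 and 2 fell in N2, and elt-7, a gut GATA factor gene, was lower in lin-52 after UV (log2 difference −0.32, adjusted p = 0.0203), while act-5, an intestinal actin, was listed at 0. The yolk genes vit-2, vit-5 and vit-6, which mark adult carry-over, were at or near 0. The part of these marker shifts in the values below was not tested, and in whole larvae fewer cells of a type and less RNA per cell cannot be told apart.

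After UV the 10 genes took up a far larger part of the measured transcripts than after mock treatment. Summed over the 10, they held 1038, 898 and 921 FPKM in lin-52 UV libraries and 1294, 1450 and 1464 FPKM in N2 UV libraries. The same sum was 22.1, 19.6 and 33.2 FPKM in lin-52 mock libraries and 22.5, 16.1 and 18.0 FPKM in N2 mock libraries. Every UV library therefore lay far above every mock library, and every N2 UV library lay above every lin-52 UV library. For each of the 10 genes, all UV values lay above all mock values in both strains, as the choice of genes fixed. Of the 12913 tested genes, 4392 had all UV values above all mock values in lin-52, and 4841 did in N2. By the limma test, 32.2% of all tested genes were called higher and 34.5% lower after UV in lin-52. In N2, 35.8% were called higher and 37.7% lower. Differences are given below as log2(scaled FPKM + 0.5), where scaling divides each library by a factor between 0.965 and 1.06, as in all FPKM values given. On that scale the median UV difference of the 10 genes was 5.31 in lin-52 and 6.09 in N2, beside −0.01 in lin-52 and −0.01 in N2 over all tested genes.

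**Figure D1:**
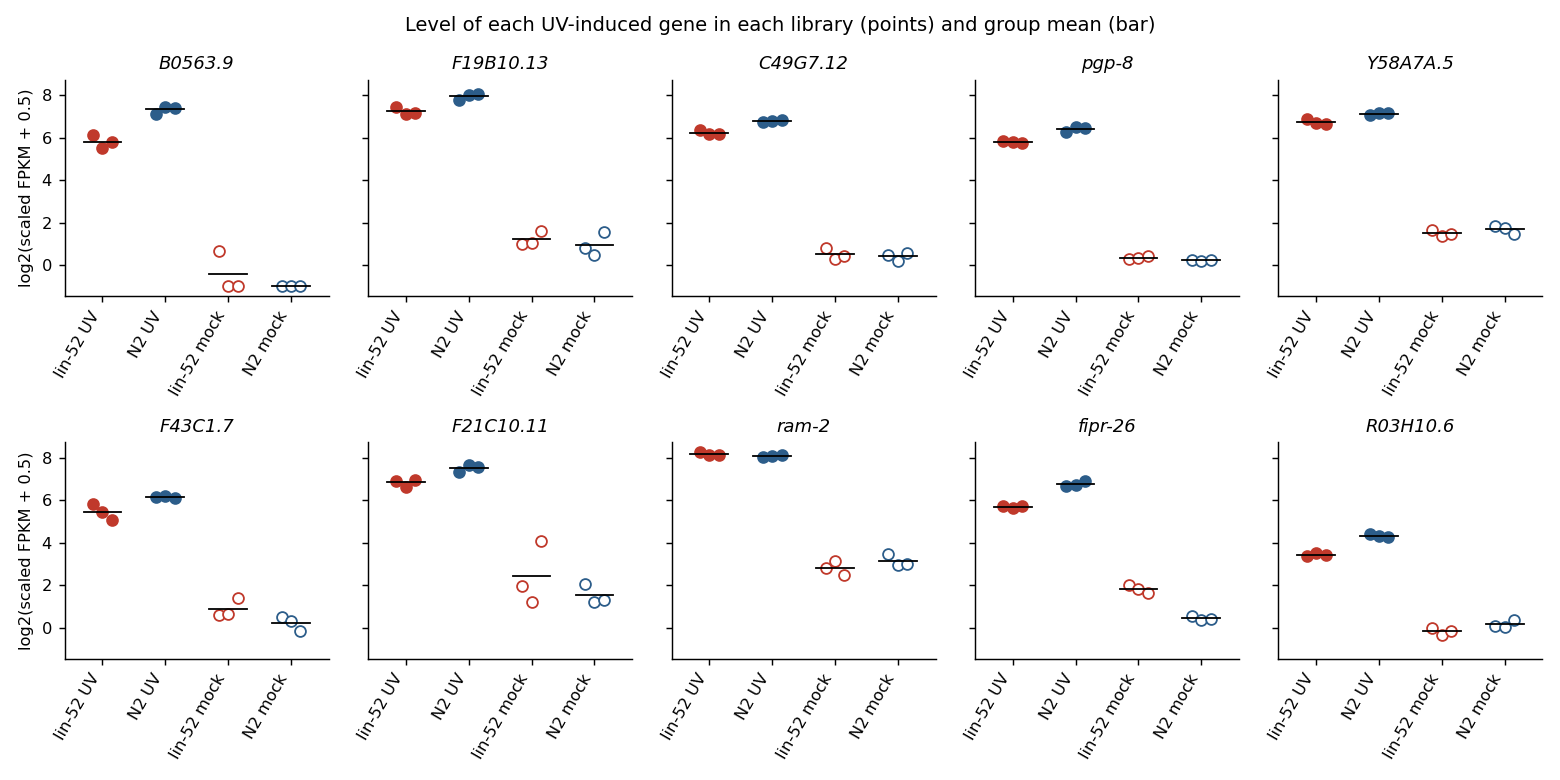
Level of each of the 10 genes, as log2(scaled FPKM + 0.5), in each library (points; filled for UV, open for mock) with the group mean as a bar, for lin-52 UV, N2 UV, lin-52 mock and N2 mock. UV points lie above mock points in every panel, and N2 UV points lie above lin-52 UV points in every panel but that of ram-2.

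When the strains are averaged, the gene with the largest UV difference of all 12913 was B0563.9, which encodes a predicted protein of 71 residues. It lies on chromosome X at 9168539–9169096 (WBcel235, plus strand) and has 2 exons. It had 69.2, 45.3 and 55.2 FPKM in lin-52 UV libraries, against 139, 174 and 170.0 FPKM in N2 UV libraries. In mock-treated larvae it was listed at 1.10, 0 and 0 FPKM in lin-52 and at 0 in all 3 N2 libraries, so no fold over mock is given. The irradiated mutants thus had less of this transcript than irradiated N2 larvae, with no overlap between the groups. After UV the lin-52 level was 35.0% of the N2 level on the fitted scale, with a 95% interval of 20.3–60.4% (log2 difference −1.52 ± 0.36 SE, limma adjusted p = 0.00907). On the log2 scale UV and mock differed by 6.25 ± 0.36 in lin-52 and 8.33 ± 0.36 in N2 (log2, SE), and the gap between these increases, lin-52 minus N2, was −2.08 ± 0.51 (limma adjusted p = 0.0247). Both strain calls were lost with a pseudocount of 0.1 in place of 0.5 (adjusted p = 0.146 after UV and 0.114 for the gap). The difference after UV was −1.52 with either pseudocount. It was called in 24 of 25 other settings, and the gap in 15 of 23. The nearest gene on the left, B0563.10, 1293 bases away on the opposite strand, had a like pattern at a lower level, with a mean of 2.54 FPKM in lin-52 UV and 9.15 FPKM in N2 UV, and 0 in both mock groups. Its UV difference was smaller in lin-52 as well (gap −1.73, adjusted p = 0.00791).

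F19B10.13 encodes a predicted protein of 114 residues from a single exon on chromosome II (3662274–3662618, plus strand). Its readings were 170.4, 138 and 143 FPKM in lin-52 UV libraries, against 221, 257 and 268 FPKM in N2 UV libraries. Mock values were 1.495, 1.52 and 2.53 FPKM in lin-52 and 1.22, 0.885 and 2.47 FPKM in N2. The mock ranges of the strains overlapped, while the UV ranges did not. UV exceeded mock by 6.03 ± 0.24 in lin-52 and by 7.02 ± 0.24 in N2 (log2, SE), the second largest of all tested genes when the strains are averaged. After UV the gene was lower in lin-52 (log2 difference −0.72 ± 0.24, adjusted p = 0.0444). The gap between the UV increases, −0.99 ± 0.34, did not pass the threshold (adjusted p = 0.0874), and it did pass without N2 mock 4 (−1.30, adjusted p = 0.0148). The call after UV was lost under 7 other settings and without any one of 8 libraries (lin-52 UV 3 or 4, each N2 UV library, lin-52 mock 2 or 3, N2 mock 1), where the adjusted p lay between 0.0505 and 0.123.

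F21C10.11, with 80 predicted residues, lies on chromosome V (9123486–9123852, plus strand). It had 119.6, 99.4 and 125.5 FPKM in lin-52 UV libraries, against 160.0, 205 and 191 FPKM in N2 UV libraries. Mock values were 3.42, 1.78 and 16.6 FPKM in lin-52 and 3.73, 1.81 and 2.003 FPKM in N2. One library, lin-52 mock 4, stood well above the other 5 mock libraries. The UV difference was 4.42 ± 0.55 in lin-52 and 5.99 ± 0.55 in N2 (log2, SE), and without lin-52 mock 4 it was 5.26 in lin-52. Although the UV groups did not overlap, the strain difference after UV of −0.69 ± 0.55 did not pass (95% interval −1.90 to 0.52, adjusted p = 0.385), and it passed when only the 6 UV libraries were fitted (adjusted p = 0.00808). The gap between the UV increases was −1.57 ± 0.78 (adjusted p = 0.221), or −0.73 without lin-52 mock 4 (adjusted p = 0.241). Its annotated start overlaps the end of F21C10.13 on the same strand, a gene at 2.92 to 7.71 FPKM in the 12 libraries, so mock reads in the shared stretch cannot be assigned with certainty.

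The small secreted peptide gene fipr-26 (F53B6.8) lies on chromosome I at 8946686–8947201 on the minus strand and encodes 57 residues. It had 53.2, 48.8 and 52.3 FPKM in lin-52 UV libraries, against 102, 104 and 122 FPKM in N2 UV libraries. In mock libraries the order of the strains was the opposite, with 3.47, 3.01 and 2.59 FPKM in lin-52 and 0.947, 0.767 and 0.847 FPKM in N2. It was the only one of the 10 genes whose groups were apart in both treatments in opposite directions with both differences past the threshold. After UV it was lower in lin-52, at 47.4% of the N2 level (95% interval 40.9–55.0%, log2 difference −1.08 ± 0.10, adjusted p = 2.27e-05). After mock treatment it was higher in lin-52 by 1.38 ± 0.10 (log2, adjusted p = 3.12e-06). On the log2 scale UV and mock differed by 3.89 ± 0.10 in lin-52 and 6.34 ± 0.10 in N2, and the gap of −2.45 ± 0.14 (adjusted p = 5.65e-06) was the widest of the 10. The mock values rest on very little signal: they are whole multiples, within 0.12 of a step, of a step of 0.896 FPKM at the depth of N2 mock 1, namely 4, 4 and 3 steps in lin-52 and 1, 1 and 1 in N2. Of these 14 steps, 11 or 78.6% were in lin-52 mock (exact binomial 95% interval 49.2–95.3%), which held 49.97% of the mock depth, a share inside that interval. Whether a step is a single fragment is not known, and the interval covers counting error only. The gap between the UV increases includes these mock values, so its size and rank share this limit.

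The rest of the fip and fipr family did not share one direction. Outside fipr-26, 18 of its genes were tested, of which 7 rose and 3 fell after UV in lin-52, and 7 rose and 5 fell in N2, with medians of 0.25 in lin-52 and 0.09 in N2 beside −0.01 in both strains for all tested genes. The adjacent gene fip-6, 441 bases away on the same strand, averaged 15.9 FPKM in lin-52 UV and 23.4 FPKM in N2 UV against 3.81 FPKM in lin-52 mock and 2.49 FPKM in N2 mock, with a UV difference of 1.95 in lin-52 and 3.00 in N2 (gap −1.05, adjusted p = 0.0122). A cluster elsewhere on chromosome I, fipr-22, fipr-23 and fipr-24, had UV differences of 2.62, 2.86 and 2.54 in lin-52 and of 3.17, 3.35 and 3.55 in N2. The gap was −0.55 for fipr-22 (adjusted p = 0.0160), −0.49 for fipr-23 (adjusted p = 0.0605) and −1.01 for fipr-24 (adjusted p = 0.00985). In fipr-6 the UV difference was 2.59 in lin-52 and 3.35 in N2. Other members moved the other way: fip-5 fell in both strains (−1.76 in lin-52 and −1.87 in N2), and so did fipr-21 (−1.17 in lin-52 and −1.53 in N2). Several genes of this family are close copies of each other, and how shared reads were assigned is not stated for them.

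The P-glycoprotein gene pgp-8 (T21E8.3) had the smallest standard error of the 10. It lies on chromosome X at 10859301–10864422 on the minus strand, with 16 exons and 1243 predicted residues. It had 55.9, 54.5 and 52.9 FPKM in lin-52 UV libraries, against 77.5, 89.1 and 88.4 FPKM in N2 UV libraries. Mock values were 0.734, 0.754 and 0.842 FPKM in lin-52 and 0.678, 0.653 and 0.675 FPKM in N2. The UV mean was 70.1 times the mock mean in lin-52 and 127 times in N2. The gene was lower in lin-52 after UV, at 64.4% of the N2 level (95% interval 57.98–71.4%, log2 difference −0.64 ± 0.07, adjusted p = 8.30e-05). UV exceeded mock by 5.43 ± 0.07 in lin-52 and by 6.19 ± 0.07 in N2, a gap of −0.76 ± 0.10 (adjusted p = 0.00155). In mock libraries the strain ranges did not overlap, but the difference of 0.13 ± 0.07 did not pass (adjusted p = 0.370).

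The pgp genes beside pgp-8 also rose after UV. Outside pgp-8, 12 of the 13 tested pgp genes remain, of which 8 rose and 3 fell after UV in each strain, with medians of 0.54 in lin-52 and 0.70 in N2. The gene pgp-5 lies 3 bases to the left of pgp-8 on the same strand. Values of pgp-5 were 109, 77.0 and 81.3 FPKM in lin-52 UV libraries, against 133, 162 and 153 FPKM in N2 UV libraries. Its mock means were 5.98 FPKM in lin-52 and 4.37 FPKM in N2. Next on the right, 924 bases away, pgp-7 averaged 24.6 FPKM in lin-52 UV and 36.8 FPKM in N2 UV against 1.31 FPKM in lin-52 mock and 1.30 FPKM in N2 mock. These neighbours and pgp-6, the next pgp gene beyond pgp-7, had UV differences between 3.78 and 3.79 in lin-52 and between 4.37 and 4.94 in N2. In each of them the increase was smaller in lin-52, with a gap of −1.16 in pgp-5 (adjusted p = 0.00379), of −0.88 in pgp-6 (adjusted p = 0.00529) and of −0.59 in pgp-7 (adjusted p = 0.0253). The same gap was −0.36 in pgp-4 (adjusted p = 0.0306), farther along the chromosome, where the UV difference was 1.88 in lin-52 and 2.24 in N2. For pgp-2 on chromosome I the direction was opposite, with −0.62 in lin-52 and −0.64 in N2. In all, the gap was lower for 5 and higher for 1 of the 12, the 1 being pgp-1 (0.66, adjusted p = 0.0301).

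**Figure D2:**
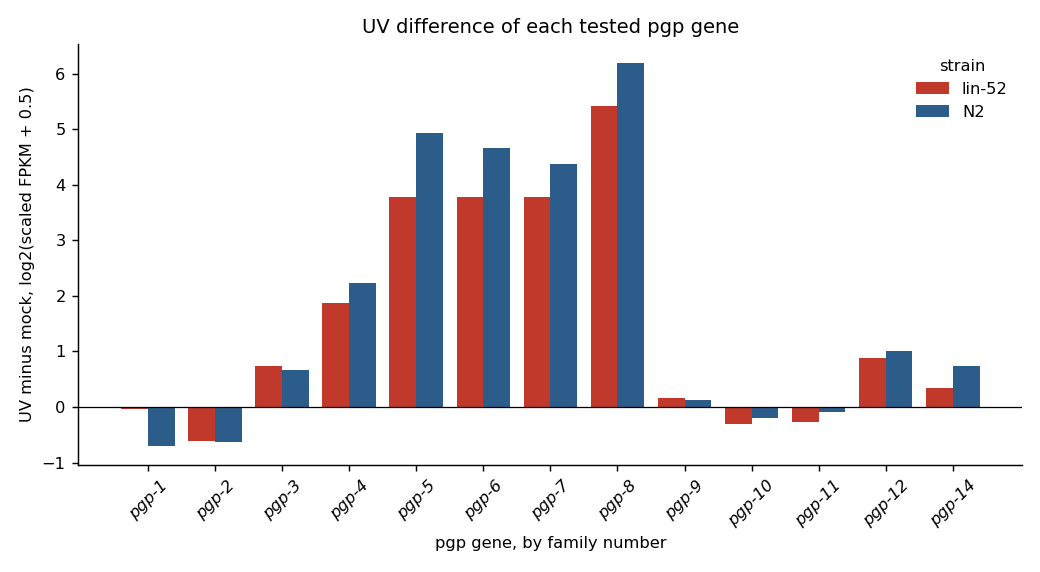
UV minus mock difference, in log2(scaled FPKM + 0.5), of each of the 13 tested pgp genes in lin-52 (red) and N2 (blue), ordered by family number. The bars of pgp-5 to pgp-8, which lie side by side on chromosome X, reach 3.78 to 5.43 in lin-52 and 4.37 to 6.19 in N2, and the others stay at or below 2.24.

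Other ABC transporters were split evenly by direction. Of 34 tested, 12 rose and 12 fell in lin-52 and 16 rose and 16 fell in N2. Among the largest changes, the half-transporter haf-7 was higher after UV by 1.99 in lin-52 and by 2.47 in N2, and mrp-2, of the multidrug resistance protein family, by 1.65 in lin-52 and by 2.05 in N2. The peroxisomal transporter gene pmp-5 fell in both strains (−2.34 in lin-52 and −2.25 in N2).

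The gene ram-2 (F38A3.2) had the highest level of the 10 after UV in both strains and was the only one whose mean after UV was not lower in lin-52. It lies on chromosome II at 11015589–11016881 on the minus strand and encodes 306 residues. It had 306, 284 and 278 FPKM in lin-52 UV libraries, against 265, 275 and 283 FPKM in N2 UV libraries. Mock values were 6.50, 8.38 and 5.0 FPKM in lin-52 and 10.4, 7.25 and 7.63 FPKM in N2, the highest mock level of the 10 in N2. Groups of the 2 strains overlapped in both treatments. The strain difference after UV was 0.08 ± 0.16 (95% interval −0.26 to 0.42, adjusted p = 0.755). The UV difference was 5.37 ± 0.16 in lin-52 and 4.96 ± 0.16 in N2, and the gap of 0.41 ± 0.22 did not pass (95% interval −0.07 to 0.90, adjusted p = 0.257).

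R03H10.6, the one gene on the DDR list, had the lowest level after UV and the smallest UV difference of the 10. It lies on chromosome II at 4171264–4173498 on the minus strand and encodes 324 residues. It had 9.89, 10.8 and 10.4 FPKM in lin-52 UV libraries, against 20.95, 19.3 and 18.7 FPKM in N2 UV libraries. Mock values were 0.483, 0.281 and 0.410 FPKM in lin-52 and 0.569, 0.537 and 0.800 FPKM in N2. It was lower in lin-52 after UV at 53.9% of the N2 level (95% interval 44.9–64.7%, log2 difference −0.89 ± 0.12, adjusted p = 0.000342). The mock groups did not overlap either, but that difference of −0.35 ± 0.12 did not pass (adjusted p = 0.139). On the log2 scale UV and mock differed by 3.61 ± 0.12 in lin-52 and 4.16 ± 0.12 in N2, with a gap of −0.55 ± 0.17 (adjusted p = 0.0612) that passed with a pseudocount of 1 (−0.63, adjusted p = 0.0128), with no intensity trend (adjusted p = 0.0460), without lin-52 mock 3 (adjusted p = 0.0343) or without N2 mock 4 (adjusted p = 0.0357). By mean UV difference it ranked 40 of all tested genes, so 30 genes outside the 10 had a larger one. The other 9 ranked between 1 and 13.

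Of 191 tested DDR genes other than R03H10.6, 61 rose and 64 fell in lin-52 and 74 rose and 62 fell in N2, with medians of 0.01 in lin-52 and 0.02 in N2. Among all tested genes 32.2% rose and 34.5% fell in lin-52, and 35.8% rose and 37.7% fell in N2. The 4 called genes with the largest mean UV change were parg-2, a poly(ADP-ribose) glycohydrolase gene, atl-1, the ATR checkpoint kinase gene, uvs-1, and csb-1, the Cockayne syndrome B gene of transcription-coupled repair. The UV difference of parg-2 was 3.67 in lin-52 and 4.05 in N2, and that of atl-1 was 1.7 in lin-52 and 2.16 in N2. The increase was smaller in lin-52, with a gap of −0.46 for atl-1 (adjusted p = 0.00649), of −0.78 for uvs-1 (adjusted p = 0.000415) and of −0.78 for csb-1 (adjusted p = 0.00563). For parg-2 the gap of −0.38 did not pass (adjusted p = 0.360). Without UV, 45 of the 191 were higher and 1 lower in lin-52, whereas R03H10.6 was not called there. In that mock comparison 3.58% of all tested genes were called higher and 1.68% lower in lin-52.

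C49G7.12, F43C1.7 and Y58A7A.5 are known here only by their sequence names. C49G7.12, on chromosome V at 4038410–4039940 on the plus strand with 287 residues, had 80.8, 71.1 and 70.3 FPKM in lin-52 UV libraries, against 107, 109.5 and 113 FPKM in N2 UV libraries. Mock values were 1.27, 0.711 and 0.828 FPKM in lin-52 and 0.885, 0.643 and 0.987 FPKM in N2, with overlapping ranges. After UV the level in lin-52 was 67.5% of that in N2 (95% interval 55.1–82.6%, adjusted p = 0.00868), which no other setting removed. UV exceeded mock by 5.72 ± 0.13 in lin-52 and by 6.37 ± 0.13 in N2, and the gap of −0.66 ± 0.19 was close to the threshold (adjusted p = 0.0452). It was lost in 15 of 24 other settings, among them without any one library except lin-52 UV 2, lin-52 mock 3 and N2 mock 4, with gaps between −0.50 and −0.71 and adjusted p between 0.0586 and 0.108. Its right-hand neighbour C49G7.10, 468 bases away on the opposite strand, averaged 109.9 FPKM in lin-52 UV and 139.6 FPKM in N2 UV against 5.25 FPKM in lin-52 mock and 4.70 FPKM in N2 mock. That is a UV difference of 4.27 in lin-52 and 4.76 in N2 (gap −0.48, adjusted p = 0.0599).

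F43C1.7 lies on chromosome III at 4241330–4242575 on the minus strand and encodes 140 residues. It had 56.7, 42.96 and 32.96 FPKM in lin-52 UV libraries, against 69.7, 73.2 and 68.8 FPKM in N2 UV libraries. Mock values were 1.04, 1.08 and 2.097 FPKM in lin-52 and 0.901, 0.735 and 0.409 FPKM in N2. The strains were apart in both treatments, lower in lin-52 after UV and higher in lin-52 after mock treatment, and the lin-52 UV libraries spread more widely (CV 26.95%) than the N2 UV libraries (CV 3.34%). The difference after UV was −0.70 ± 0.23 (adjusted p = 0.0424), and the one after mock treatment, 0.67 ± 0.23, did not pass (adjusted p = 0.143). The UV difference was 4.56 ± 0.23 in lin-52 and 5.93 ± 0.23 in N2, a gap of −1.37 ± 0.33 (adjusted p = 0.0230). Its mock values stood at 5, 6 and 10 steps in lin-52 and at 4, 4 and 2 steps in N2. A step was 0.216 FPKM at the depth of N2 mock 1, so the mock part of the gap rests on little signal. The gap lost its call in 5 of 24 other settings, among them those without lin-52 UV 3 (−1.37, adjusted p = 0.0509), lin-52 UV 4 (−1.18, adjusted p = 0.0555), N2 UV 2 (−1.34, adjusted p = 0.0560) and N2 mock 4 (−1.19, adjusted p = 0.0502). The call after UV was lost in 13 of 25 other settings, namely 7 processing choices and those without lin-52 UV 3 or 4, without any one N2 UV library or without N2 mock 2, with differences between −0.51 and −0.72 and adjusted p between 0.0544 and 0.165.

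Y58A7A.5 lies on chromosome V at 5085704–5086969 on the minus strand and encodes 312 residues. It had 116, 103 and 99.5 FPKM in lin-52 UV libraries, against 132, 143 and 141 FPKM in N2 UV libraries. Mock values were 2.63, 2.04 and 2.27 FPKM in lin-52 and 3.13, 2.85 and 2.21 FPKM in N2. The level after UV was lower in lin-52, at 76.4% of the N2 level (95% interval 64.9–89.9%, adjusted p = 0.0192), a call lost without lin-52 UV 3, lin-52 UV 4, N2 UV 2 or N2 UV 3 (adjusted p between 0.0585 and 0.0758). On the log2 scale UV and mock differed by 5.25 ± 0.11 in lin-52 and 5.44 ± 0.11 in N2, and the gap of −0.19 ± 0.15 did not pass (95% interval −0.53 to 0.14, adjusted p = 0.452). An 87-base noncoding RNA gene annotated as Y58A7A.7 lies within it on the opposite strand, listed at 74.1, 0 and 217 FPKM in lin-52 UV, at 415, 741 and 469 FPKM in N2 UV, and at 0 in all 6 mock libraries. A second Y58A7A.7, inside the neighbouring gene Y58A7A.4, was listed at the same values in every library. Reads from that stretch therefore cannot be told apart between the 2 places, and whether strand was used to assign them is not given. Y58A7A.4 averaged 45.8 FPKM in lin-52 UV and 72.0 FPKM in N2 UV against 4.001 FPKM in lin-52 mock and 3.83 FPKM in N2 mock, a UV difference of 3.36 in lin-52 and 4.07 in N2 (gap −0.71, adjusted p = 0.00780).

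**Figure D3:**
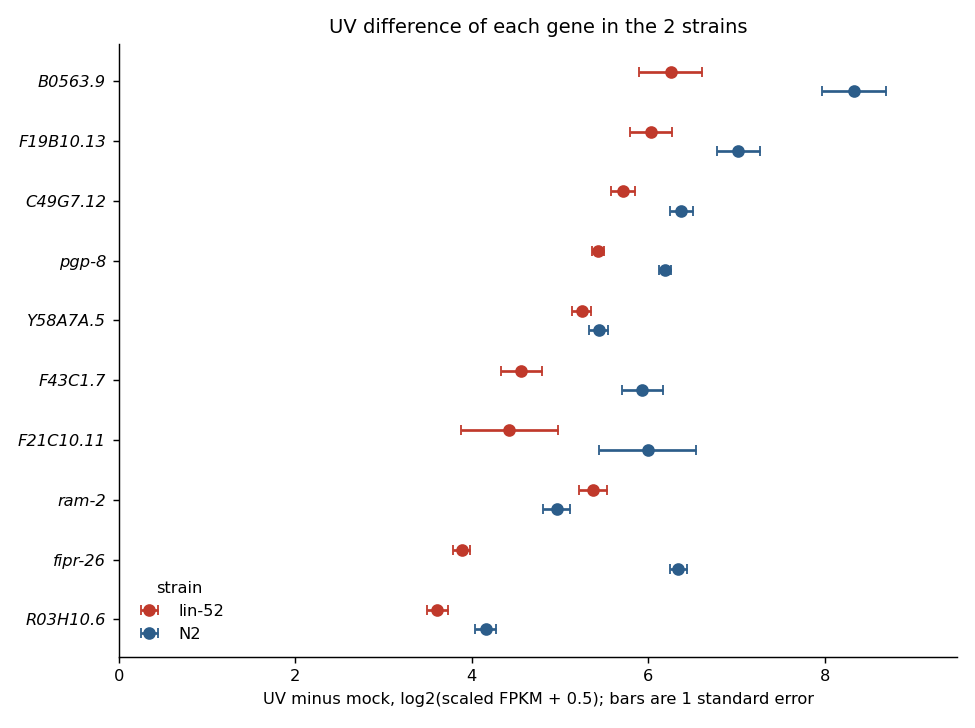
UV minus mock difference, in log2(scaled FPKM + 0.5), of each gene in lin-52 (red, upper) and N2 (blue, lower), with 1 standard error from the limma fit. The lin-52 point lies left of the N2 point for 9 genes and right of it for ram-2, and the widest separation is that of fipr-26, at 3.89 in lin-52 and 6.34 in N2.

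Across the 10 genes, the UV increase tended to be smaller in lin-52. The gap between the strains was below 0 for 9 of 10, and 5 passed the threshold, all lower in lin-52 (B0563.9, C49G7.12, fipr-26, F43C1.7 and pgp-8; 7 lower and 0 higher at an unadjusted p under 0.05), beside 6.21% of all tested genes called lower and 5.17% called higher. Of the called genes, B0563.9, C49G7.12 and pgp-8 averaged under 1 FPKM in both mock groups. They thus passed the filter only through the UV libraries, and their gaps use those same UV values. All tested genes are therefore not a like set to compare them with. The median gap was −0.88, with 0.00 over all tested genes. In FPKM, the lin-52 increase was 34.9% of the N2 increase for B0563.9, 44.6% for fipr-26, 52.4% for R03H10.6, between 58.8% and 76.3% for 6 genes, and 106% for ram-2. The gaps of fipr-26 and pgp-8 passed under all 24 other settings. None of these settings varies counting error. The fipr-26 gap includes its mock strain difference of 1.38, which rests on 11 steps in lin-52 mock and 3 in N2 mock. The count of 5 fell to 2 without lin-52 UV 3, lin-52 UV 4 or N2 UV 2, and to 3 without N2 UV 3, N2 mock 1 or N2 mock 2. B0563.9 itself lost its call without any one of those 6 libraries or N2 mock 4 (gaps between −1.93 and −2.08, adjusted p between 0.0502 and 0.0627).

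After UV, 8 of the 10 genes were lower in lin-52 and none was higher (limma; 0 higher and 8 lower at an unadjusted p under 0.05), beside 15.2% of all tested genes called lower and 12.9% called higher in that comparison. The 2 not called were F21C10.11 and ram-2. In 9 of 10 genes the lin-52 UV and N2 UV values did not overlap, each with lin-52 lower, which was the case for 24.05% of all tested genes (18.1% did not overlap with lin-52 higher). The median difference was −0.70 beside −0.02 for all tested genes. Here too, B0563.9, C49G7.12, R03H10.6 and pgp-8 had passed the filter only through the UV libraries. The 8 fell to 5 without lin-52 UV 3, lin-52 UV 4, N2 UV 2 or N2 UV 3, and fipr-26, R03H10.6, pgp-8 and C49G7.12 were called in all 25 other settings. Within the lin-52 UV group, library 2 was the highest for 8 of the 10 genes, which was the case for 34.5% of tested genes. Without that library the count of genes called lower was still 8.

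After mock treatment only fipr-26 was called between the strains, 1 of 10 higher and 0 lower (limma; 2 higher and 1 lower at an unadjusted p under 0.05), beside 3.58% of all tested genes called higher and 1.68% called lower in lin-52. The median difference of the 10 was 0.20. Strain ranges were apart for 4 genes, 3 of them higher and 1 lower in lin-52, beside 10.3% of all tested genes with lin-52 higher and 13.9% with lin-52 lower. The fipr-26 call rests on 11 steps of signal in lin-52 mock and 3 in N2 mock, and the exact interval of that split, 49.2–95.3%, includes the 49.97% of mock depth that lin-52 held. The N2 mock mean was under 1 FPKM for 6 of the 10, against 3.68% of tested genes, so most differences at this level rest on low values.

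**Figure D4:**
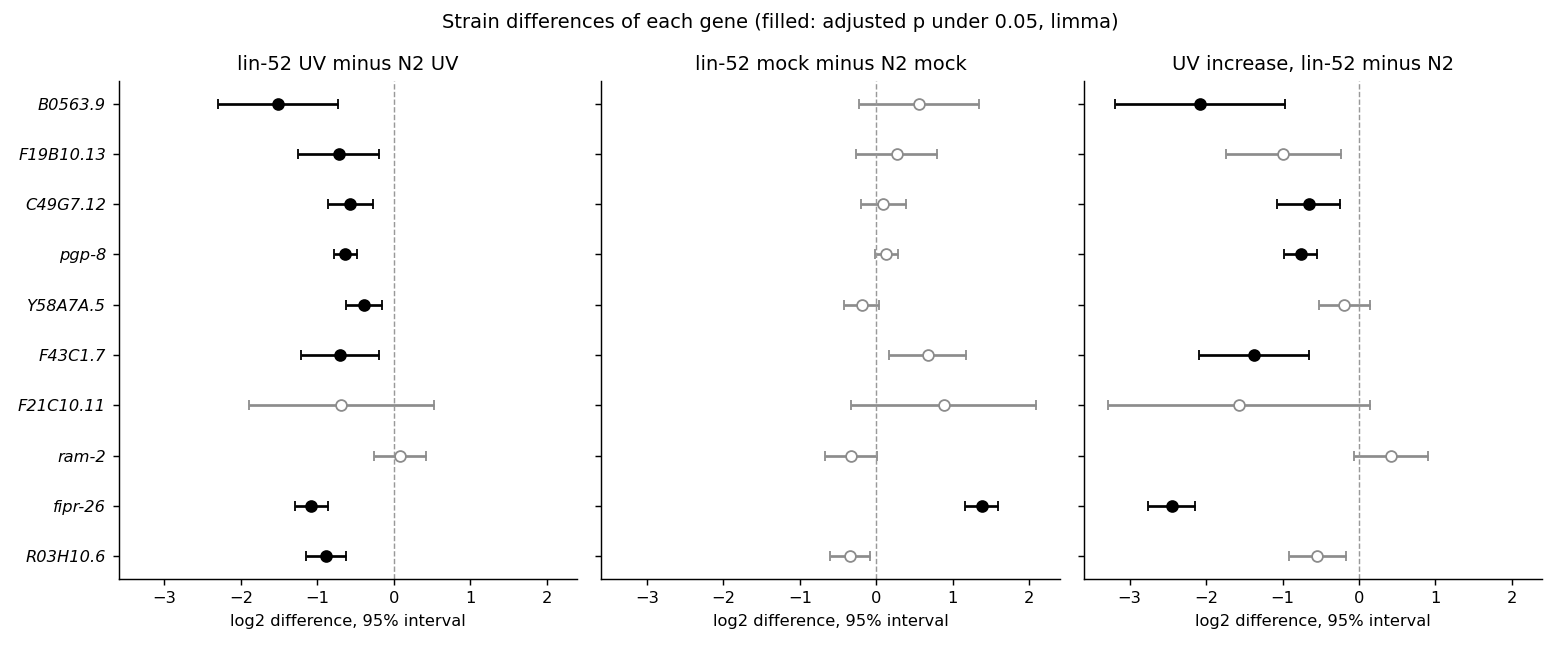
Difference of each gene, in log2(scaled FPKM + 0.5), between lin-52 UV and N2 UV (left), between lin-52 mock and N2 mock (middle), and between the UV increases of lin-52 and N2 (right), with 95% intervals; filled points have a limma adjusted p under 0.05. After UV 8 of 10 points are filled and lie left of 0, after mock treatment only that of fipr-26 is filled and lies right of 0, and on the right 5 are filled and lie left of 0.

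A smaller increase in lin-52 was also frequent among the strongly UV-raised genes outside the 10. Of the 50 genes with the largest mean UV difference, 40 were not among the 10, and for 15 of these (37.5%) the increase was smaller in lin-52 and for 0 larger (limma; 23 smaller and 1 larger at an unadjusted p under 0.05), with a median gap of −0.64. Of the top 200, 190 were outside the 10, with 59 smaller (31.1%), 1 larger and a median gap of −0.59. After UV itself, 26 of the 40 (65.0%) were lower in lin-52. The reduced increase was therefore not particular to the 10 genes. The UV increase, its strain gap and the strain difference after UV share the UV libraries, and these ranked genes are likewise chosen on UV values.

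**Figure D5:**
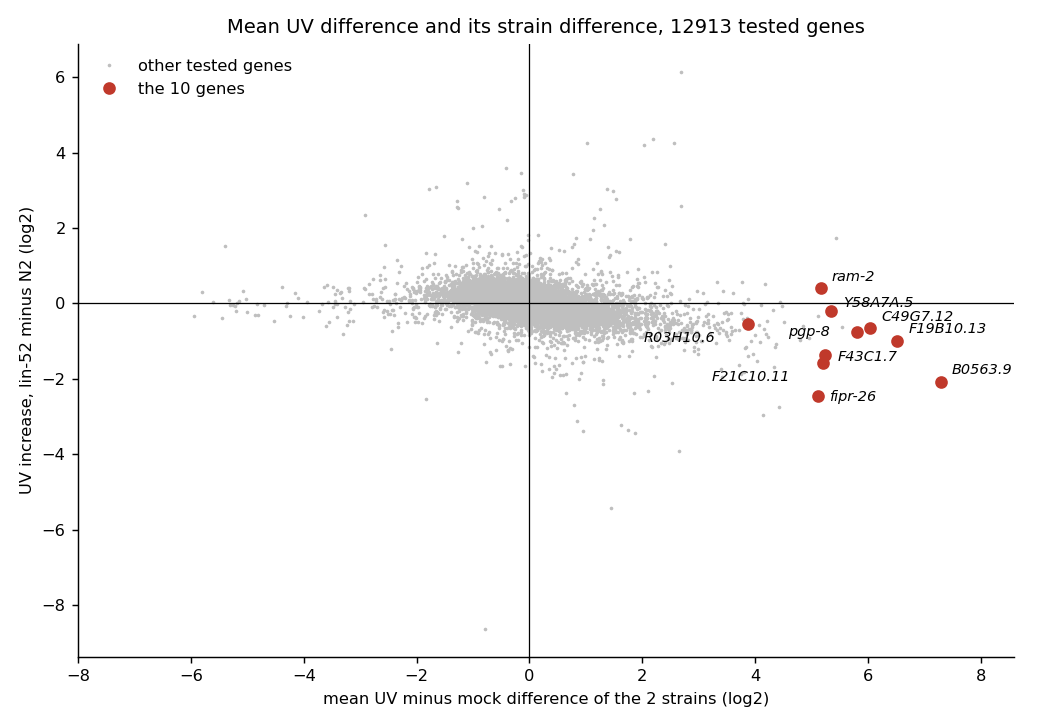
Mean of the UV minus mock differences of lin-52 and N2 (x, log2) and the UV increase of lin-52 minus that of N2 (y, log2) for each of the 12913 tested genes (grey) and the 10 genes (red, named). The 10 lie at the right edge, between 3.88 and 7.29 on x, and all but ram-2 lie below 0 on y, with fipr-26 at −2.45 and B0563.9 at −2.08.

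The 5 genes outside the 10 with the largest mean UV difference included both copies of numr-1, a pair of near-identical genes named for nuclear metal-responsive proteins, whose shared reads make each value uncertain. The copy at 7362619–7363464 on chromosome III averaged 125 ± 6.95 FPKM in lin-52 UV and 219 ± 13.9 FPKM in N2 UV against 2.62 ± 0.698 FPKM in lin-52 mock and 2.64 ± 0.872 FPKM in N2 mock (SD, n = 3 each). The other copy of numr-1 averaged 55.9 FPKM in lin-52 UV and 97.1 FPKM in N2 UV. The infection response gene irg-2, which lies on chromosome V near C49G7.12, averaged 39.4 FPKM in lin-52 UV and 56.9 FPKM in N2 UV against 0.795 FPKM in lin-52 mock and 0.996 FPKM in N2 mock. F09C6.3 had a UV difference of 4.51 in lin-52 and 5.42 in N2, with a smaller increase in lin-52 (gap −0.91, adjusted p = 0.0247). The limma gap also passed for the numr-1 copy with the lower level (−0.62, adjusted p = 0.0324). It did not pass for the copy at 7362619–7363464 (−0.81, adjusted p = 0.0787) or for irg-2 (−0.33, adjusted p = 0.431). C36A4.10 was unlike the rest, since it was at 0 in 5 mock libraries and at 33.9 FPKM in N2 mock 4, with 64.6, 30.2 and 30.5 FPKM in lin-52 UV libraries and 105.8, 38.3 and 26.8 FPKM in N2 UV libraries. Its gap was above 0 and did not pass (1.75 with an SE of 1.81, limma adjusted p = 0.582).

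The genes whose pattern over the 12 libraries was most like the mean profile of the 10 had smaller UV differences than any of the 10. By Pearson's r with that mean profile, a description over 12 libraries that share 4 groups, they were ugt-29, a UDP-glucuronosyltransferase gene, cyp-33C8, a cytochrome P450 gene, ama-1, which encodes the large subunit of RNA polymerase II, Y54E5A.5 and W01F3.2, with r between 0.9985 and 0.9988. Among the 10 themselves, which make up that profile, r lay between 0.974 (F21C10.11) and 0.999 (pgp-8). The gene ama-1 averaged 196 FPKM in lin-52 UV and 219 FPKM in N2 UV against 83.2 FPKM in lin-52 mock and 82.4 FPKM in N2 mock. For ugt-29 the means were 67.7 FPKM in lin-52 UV and 95.7 FPKM in N2 UV against 8.28 FPKM in lin-52 mock and 7.35 FPKM in N2 mock.

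The 10 genes were short more often than other genes. Exonic length was under 400 bases for 4 of them, against 4.20% of tested genes, and 5 encode fewer than 150 residues, against 14.4% of tested genes. They lie on chromosome II (3), V (3), X (2), I (1) and III (1), and none lies on IV. Of the 20 nearest protein-coding neighbours on either side, 13 were tested, of which 11 rose and 2 fell after UV in each strain, with median differences of 1.16 in lin-52 and 1.85 in N2. Over all tested genes 32.2% rose and 34.5% fell in lin-52, and 35.8% rose and 37.7% fell in N2. The neighbours that fell were F21C10.7 beside F21C10.11 (−0.42 in lin-52 and −0.87 in N2) and mrpl-21, a mitochondrial ribosomal protein gene beside F43C1.7 (−0.65 in lin-52 and −0.95 in N2). The other neighbours with small increases were nhr-20, glb-32, let-858 and R03H10.7, each under 0.74 in both strains. Neighbours that rose include genes of a member's own family, namely pgp-5 and pgp-7 beside pgp-8 and fip-6 beside fipr-26. How any reads shared within these families were assigned is not stated.

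A list of other antimicrobial peptide genes, the cnc and nlp genes, had members on both sides. Of 16 tested, 6 rose and 7 fell in lin-52 and 4 rose and 5 fell in N2. The gene cnc-11 was at 0 in all 6 mock libraries, with 3.56 ± 2.12 FPKM in lin-52 UV and 13.1 ± 4.65 FPKM in N2 UV (SD, n = 3 each), a lower level in lin-52 after UV (log2 difference −1.82, adjusted p = 0.00183). The gene cnc-4 had a UV difference of 1.21 in lin-52 and 1.73 in N2 (gap −0.52, adjusted p = 0.0469), and nlp-24 fell in both strains (−1.32 in lin-52 and −1.60 in N2).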

How the data were processed

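Total RNA of whole L1 larvae was depleted of ribosomal RNA, made into stranded libraries and sequenced in pairs. Per the study's methods, reads were aligned with Tophat and quantified with Cufflinks in the QuickNGS pipeline on Ensembl annotation, and the authors deposited FPKM values per gene and library. The authors' own tests of lin-52 and wild-type L1 larvae used DESeq2, a test on counts, whereas only FPKM values were used here. Fragment counts and depth are not given, so relative depth was read from steps between low FPKM values, and transcript length and read assignment are the authors' choices. Whether strand was used in quantification is not given in the sources used here.

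The 46245 gene IDs were joined to Ensembl release 115 annotation of WBcel235, where 45990 matched and 255 did not. FPKM was divided by median-ratio library factors (0.965–1.06), and log2(FPKM + 0.5) of the 12913 protein-coding genes averaging at least 1 FPKM was fitted over all 4 groups with limma 3.58.1 (R 4.3.3; empirical Bayes with intensity trend). P-values were adjusted over all genes by Benjamini-Hochberg, with a threshold of 0.05, and intervals are 95% intervals of that fit. Levels between genes are compared as FPKM, per length. The script was tested on simulated data.

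The 10 genes, the gene lists and the tests were chosen with earlier results of these data known. Named genes outside the 10 were the 5 with the largest mean UV difference and at least 5 FPKM in UV libraries, the 5 with the highest r with the mean profile, up to 4 called genes per list by UV change, and nearest neighbours; a few more of the families are named after their values were seen. Alternatives covered scaling, pseudocount (0.1 and 1), filter, biotype, trend, replicate block, zeros and leaving out each library. No reference sequence was used.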

Additional observations from a re-analysis of the deposited data

Results flagged for a closer look

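For 5 of the 10 genes the UV increase differed between the strains by the test of the difference itself (limma, 3 libraries in each of 4 groups), and in each it was smaller in lin-52 than in N2. The difference in log2(scaled FPKM + 0.5) was −2.45 for fipr-26, −2.08 for B0563.9, −1.37 for F43C1.7, −0.76 for pgp-8 and −0.66 for C49G7.12. For fipr-26 the strain difference after mock treatment, also called, is part of this gap and rests on 11 steps of signal in lin-52 mock and 3 in N2 mock. For B0563.9 the N2 mock libraries are all at 0, so the size of the difference depends on the pseudocount. B0563.9, C49G7.12 and pgp-8 entered the tests only through the UV libraries. The cause of these differences was not tested.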

How the results depend on the processing

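No called result changed sign in any setting. The number of genes with a strain difference in the UV increase was 1470, and 839 with the replicate block. Leaving out 1 library gave 821 to 2180 genes, with the lowest counts without lin-52 UV 3 (922), lin-52 UV 4 (821), N2 UV 2 (827), N2 UV 3 (964) or N2 mock 1 (957), and the highest without lin-52 UV 2. The mock strain comparison called 679 genes, 412 with the replicate block, and 440 (without N2 mock 1) to 776 (without lin-52 UV 2) when a library was left out. Of the 10 genes, the 5 with a smaller increase in lin-52 became 3 with a pseudocount of 0.1 and 3 with the replicate block, and 2 to 6 when a library was left out. With the block, C49G7.12 (−0.69, adjusted p = 0.0938) and F43C1.7 (−1.37, adjusted p = 0.0648) lost that call, and F43C1.7 also lost its call after UV (−0.61, adjusted p = 0.1545). The 8 lower in lin-52 after UV became 5 with a pseudocount of 0.1, and 5 to 8 when a library was left out. Deviations of same-numbered libraries from their group means correlated weakly (r from −0.164 to 0.254). Such values cannot show whether same-numbered samples were handled together, so pairing stays undecided. The share of higher among called genes moved with scaling: after UV from 45.9% to 59.3% with FPKM as deposited and 64.1% with equal sums, after mock treatment from 68.0% to 83.3% and 86.1%, and for the increase from 45.4% to 55.9% with quantile normalization, although the median of all genes moved by under 0.1. Low mock values limit the UV differences of the 10 genes.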
